A study of Mus musculus with 5 samples.

Results

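The genes of fatty acid oxidation in mitochondria and peroxisomes, with those of ketone body metabolism and the receptor PPARα that controls many of them, were read out in 5 mouse livers. The list holds 36 genes of the 17016 gene symbols on the array, found through the RefSeq accession of each probe. Among them, 32 had enough usable spots to be tested, and 23 had a value in every liver. Each liver came from a male C57BL/6N mouse kept on an ethanol diet (8 weeks), after which it received 3 binges of ethanol (5 g per kg). All 5 samples, called livers 1 to 5, form 1 group. Total RNA from each was labelled with Cy5 and hybridised to a 2-colour Agilent array with Cy3-labelled Ambion Mouse Assorted Total RNA, a purchased RNA whose tissue the labels give as liver and whose strain they give as C57BL/6N. The labels give neither the age of the mice nor whether the samples are separate animals. Every value below is the log2 ratio of liver over that RNA, so 0 means equal signal and -1 means that the liver had a signal 2-fold lower. No control diet was measured here, so no value compares ethanol with its absence, and the effect of ethanol cannot be told apart from any other difference between these livers and the reference RNA.

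Fatty acids are broken down by beta oxidation, a cycle of dehydrogenation, hydration, a second dehydrogenation and thiolysis that releases acetyl-CoA. Mitochondria take up most fatty acids as carnitine esters and burn them for energy, and in the fasted liver the acetyl-CoA is made into ketone bodies for other organs. Peroxisomes shorten very long, branched and dicarboxylic acids with their own enzymes. PPARα, a nuclear receptor activated by fatty acids, pairs with RXR at promoters and enhancers and raises the expression of many genes of both compartments.

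The 5 lowest mean ratios to the reference RNA were those of Acaa1b, Ehhadh, Abcd3, Pdk4 and Bdh1. Acaa1b, Ehhadh and Abcd3 are peroxisomal. Pdk4 and Bdh1 were classed by role, as a PPARα target and a ketone body enzyme, and not by compartment. Their low ratios therefore enter neither the mitochondrial nor the peroxisomal counts and means below. Of the 15 tested members of the mitochondrial carnitine shuttle, beta oxidation and electron transfer, 12 were not called. The other 3 were lower without a minimum fold, where 12.8% of all genes were. With Agilent's processed signals, Cpt2, Hadha and Etfdh were also called lower, and with scaling between arrays Eci1 was no longer called. Among the 32 genes tested, 26 had a mean ratio below 0 (81.2%, against 53.2% of all 14917 genes tested), and the median of the list was -0.28 against -0.02 for all genes. In 3 genes the ratio was at least 2-fold lower at a limma adjusted p below 0.05: Acaa1b, a peroxisomal thiolase, Ehhadh, the peroxisomal bifunctional enzyme, and Pdk4, a kinase that shuts off pyruvate dehydrogenase. Of all genes tested, 0.416% were lower by the same rule. None was at least 2-fold higher, where 0.865% of all genes were. Without a minimum fold, 12 members were lower and 1, Acox2, was higher, against 12.8% and 14.2% of all genes. With each array centred on its median in place of loess, the 2-fold counts over all genes were 97 higher and 77 lower in place of 129 and 62, 5 members were lower at least 2-fold, and no member was higher.

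**Figure D1:**
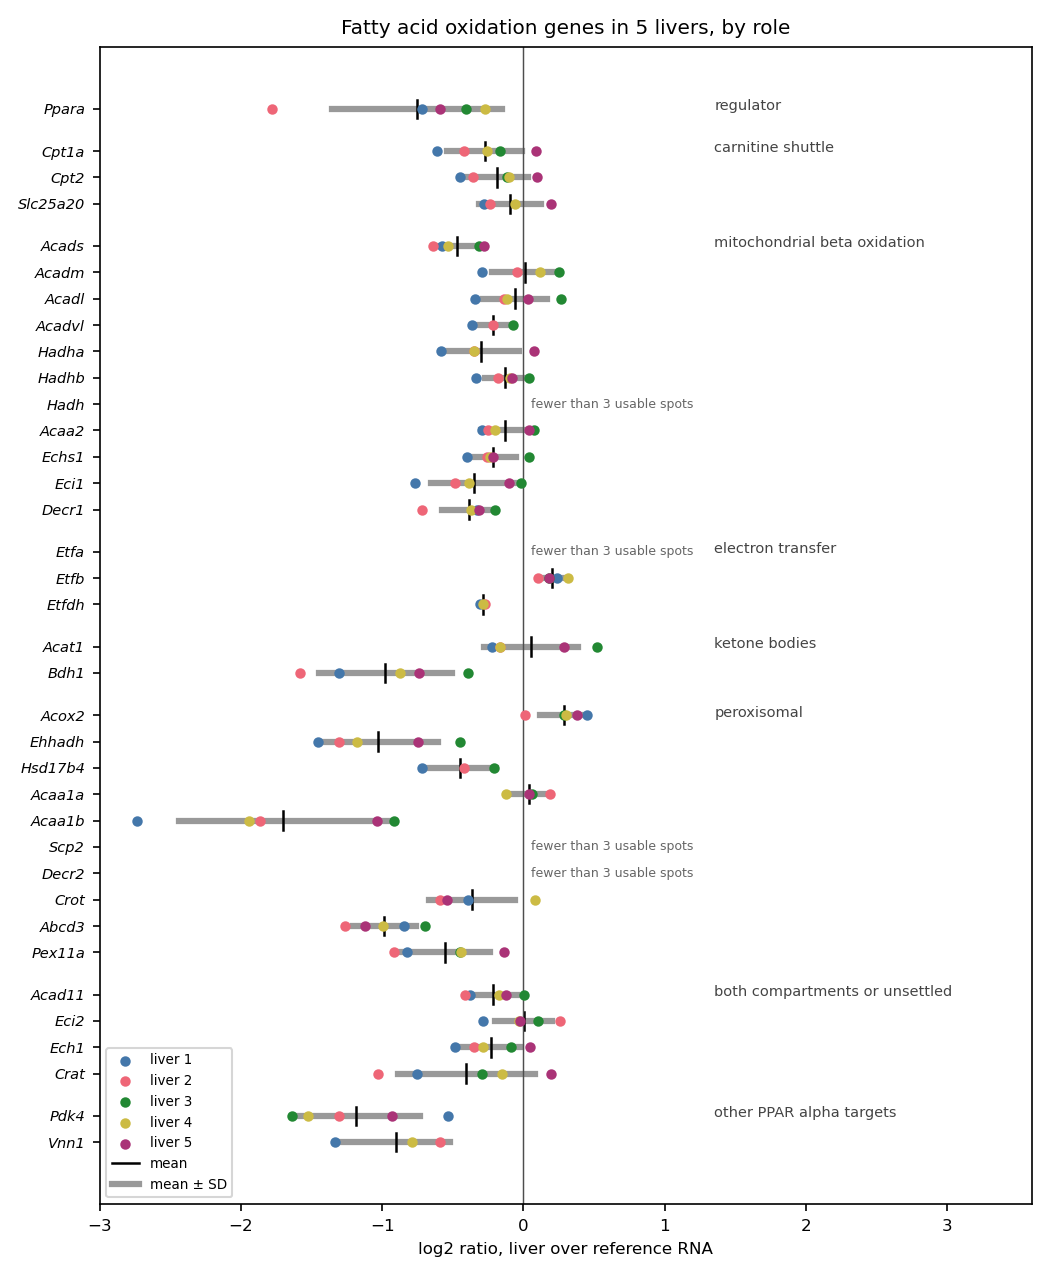
Log2 ratio of liver over reference RNA (x axis) for the members (y axis, grouped by role), with 1 point per liver, a tick at the mean and a grey bar for mean ± SD. Acaa1b, Ehhadh, Bdh1, Abcd3, Pdk4, Vnn1 and Ppara lie to the left of 0 in every liver measured, while Acadm, Acadl, Acat1 and Eci2 straddle it.

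Promoter sequences are shown for the 3 genes that were at least 2-fold lower and for 2 that were not, Acaa1a, the close relative of Acaa1b, and Hadhb, a mitochondrial enzyme. Each is the run of 250 bases that ends just before the RefSeq start, on the gene's own strand, in build GRCm38.p6. Capitals mark a match to AGGTCA or GGGTCA, half-sites of the kind that receptors of the PPAR and RXR family bind, on either strand. Acaa1b lies at chr9:119157094-119157343 (minus strand), Acaa1a at chr9:119341044-119341293 (plus), Ehhadh at chr16:21787835-21788084 (minus), Pdk4 at chr6:5496279-5496528 (minus) and Hadhb at chr5:30155003-30155252 (plus).
Acaa1b: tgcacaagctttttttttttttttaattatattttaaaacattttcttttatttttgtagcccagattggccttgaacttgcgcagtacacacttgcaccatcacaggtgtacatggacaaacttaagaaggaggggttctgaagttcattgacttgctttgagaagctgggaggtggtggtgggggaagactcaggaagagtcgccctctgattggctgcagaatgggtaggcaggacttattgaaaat
Acaa1a: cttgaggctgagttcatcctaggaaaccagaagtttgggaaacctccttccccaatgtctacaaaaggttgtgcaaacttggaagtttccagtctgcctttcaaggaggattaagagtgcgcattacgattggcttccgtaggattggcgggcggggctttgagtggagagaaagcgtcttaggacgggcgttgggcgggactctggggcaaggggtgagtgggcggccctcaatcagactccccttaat
Ehhadh: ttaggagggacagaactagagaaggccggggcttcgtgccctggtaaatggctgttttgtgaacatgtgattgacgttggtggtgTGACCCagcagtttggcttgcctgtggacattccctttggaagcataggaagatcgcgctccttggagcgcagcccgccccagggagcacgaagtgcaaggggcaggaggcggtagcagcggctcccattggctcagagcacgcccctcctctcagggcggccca
Pdk4: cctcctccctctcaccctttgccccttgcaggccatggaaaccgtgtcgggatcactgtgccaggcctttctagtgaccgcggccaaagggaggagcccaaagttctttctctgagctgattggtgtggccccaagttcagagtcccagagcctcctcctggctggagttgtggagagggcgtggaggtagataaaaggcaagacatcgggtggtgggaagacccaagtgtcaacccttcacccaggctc
Hadhb: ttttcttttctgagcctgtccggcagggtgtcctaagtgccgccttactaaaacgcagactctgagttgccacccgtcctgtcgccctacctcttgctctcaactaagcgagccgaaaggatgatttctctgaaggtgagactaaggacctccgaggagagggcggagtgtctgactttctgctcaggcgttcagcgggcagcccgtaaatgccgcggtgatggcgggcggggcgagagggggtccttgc

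Of the 36 members, 30 had a promoter in the RefSeq table, in 33 windows of 250 bases. Ehhadh alone among the 5 sequences printed holds a half-site: TGACCC, which reads GGGTCA on the other strand and whose first base lies 165 bases before the start. AGGTCA was found in windows of Acadm, Acadvl, Cpt1a, Echs1 and Scp2, and GGGTCA in windows of Bdh1, Ehhadh, Etfdh and Pex11a. Either half-site was in 9 of the 33 member windows, and in 23.8% of all 32851 windows of that length. The full element, a direct repeat of AGGTCA with 1 base of any kind between the copies, was in no member window and in 0.0335% of all windows. A looser repeat, with AGGNCA in place of each copy, was in no member window and in 0.338%. That looser repeat without its first base was in 2 member windows, both of Acox2, and in 0.694% of all windows. All motifs were searched on both strands, and every match of the strict repeat is also a match of the half-site and of both looser forms. A window without a match says only that those letters are not in it.

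Ppara, which encodes the receptor itself, had ratios of -0.72, -1.78, -0.41, -0.28 and -0.59 in livers 1 to 5. All 5 values lay below 0, and liver 2 stood far below the other four. The mean was -0.75 ± 0.60 (SD, n = 5), or 1.69-fold lower, with a limma adjusted p of 0.0345. Without liver 1 the adjusted p was 0.0921 and without liver 5 it was 0.0764, so the call did not hold without either of them.

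The carnitine shuttle carries long-chain acyl groups across the mitochondrial membranes, and none of its 3 members passed the test. Cpt1a, the outer membrane transferase that sets the pace of entry, had ratios of -0.61, -0.42, -0.17, -0.26 and 0.09, a mean of -0.28 ± 0.26 (SD, n = 5) with an adjusted p of 0.0781. Livers 1 and 2 were lowest and liver 5 alone was above 0. A dimmer Cpt1a probe gave a mean of -0.08. Cpt2, the inner membrane transferase, stood at -0.19 ± 0.22 (n = 5, adjusted p = 0.159). Slc25a20, the carrier that exchanges acylcarnitine for carnitine, stood at -0.10 ± 0.22 (n = 4, adjusted p = 0.516).

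Within mitochondrial beta oxidation, 3 of the 10 enzymes tested were lower (all genes, 12.8%) and none was higher (all genes, 14.2%). No difference reached 2-fold. The lower ones were Acads, the dehydrogenase for short chains, and Decr1 and Eci1, the reductase and isomerase that let unsaturated chains enter the cycle. Acads had ratios of -0.58, -0.64, -0.32, -0.54 and -0.28, below 0 in every liver. Its mean of -0.47 ± 0.16 (SD, n = 5), or 1.38-fold lower, had an adjusted p of 0.00490.

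Decr1 read -0.33, -0.72, -0.20, -0.37 and -0.31, a mean of -0.39 ± 0.19 (SD, n = 5, adjusted p = 0.0116), and its second probe averaged -0.28. The Decr1 spot was dim, with liver signals of 57.9 to 169, and its mean ran from -0.66 to -0.30 over the alternatives. The second probe was dimmer still and was well above background in liver on 4 arrays. Liver 2 was the lowest and the other livers lay close together. Eci1 read -0.76, -0.49, -0.02, -0.38 and -0.10, a mean of -0.35 ± 0.30 (SD, n = 5, adjusted p = 0.0442). Its values spread from near 0 in liver 3 to well below it in liver 1, and leaving out liver 1, 2 or 4 ended the call, with adjusted p of 0.104, 0.116 and 0.118.

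The dehydrogenases for longer chains stood closer to the reference RNA than Acads did. Acadm, for medium chains, averaged 0.0080 ± 0.23 (SD, n = 4) and Acadl, for long chains, -0.06 ± 0.22 (n = 5), with adjusted p of 0.961 and 0.665. Both had values on either side of 0, and the sign of their means turned when a single liver was left out. Acadvl, for very long chains, averaged -0.22 ± 0.15 over the 3 livers with a usable spot (adjusted p = 0.157). The 3 values, -0.37, -0.21 and -0.07 in livers 1 to 3, all lay below 0.

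Hadha and Hadhb encode the 2 subunits of the trifunctional protein, which carries out the later steps for long chains. Their RefSeq starts lie 273 bases apart on opposite strands, so the Hadhb promoter printed above spans most of the stretch between them. Hadha read -0.58, -0.35, -0.35 and 0.07 in livers 1, 2, 4 and 5, a mean of -0.30 ± 0.27 (SD, n = 4, adjusted p = 0.0818), while Hadhb read -0.34, -0.18, 0.04, -0.09 and -0.08, a mean of -0.13 ± 0.14 (SD, n = 5, adjusted p = 0.239). Liver 1 was the lowest for both, and neither passed the test. Echs1, the hydratase for shorter chains, averaged -0.21 ± 0.16 (adjusted p = 0.0810), and Acaa2, the mitochondrial thiolase, -0.13 ± 0.17 (adjusted p = 0.268), each over 5 livers.

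Electrons from the acyl-CoA dehydrogenases pass through the electron transfer flavoprotein to the respiratory chain. Etfb, its beta subunit, was 1 of 2 members above 0 in every liver measured, at 0.24, 0.10, 0.18, 0.32 and 0.18. The 5 values lay close together, and the mean of 0.20 ± 0.08 (SD, n = 5) had an adjusted p of 0.0560. Etfdh, which hands the electrons to ubiquinone, averaged -0.29 ± 0.02 over 3 livers (adjusted p = 0.0683). A second Etfdh probe with 5 values averaged -0.12 ± 0.29.

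Of the 2 members of ketone body metabolism, Bdh1 was lower and Acat1 was not called. Bdh1, which interconverts acetoacetate and 3-hydroxybutyrate, had ratios of -1.30, -1.58, -0.40, -0.87 and -0.74. All livers were below 0, liver 3 least so. The mean of -0.98 ± 0.47 (SD, n = 5), or 1.97-fold lower, had an adjusted p of 0.00480. Acat1, the mitochondrial acetoacetyl-CoA thiolase, read -0.22, -0.16, 0.52, -0.16 and 0.29, with livers 3 and 5 above 0 and the others below. Its mean was 0.05 ± 0.33 (SD, n = 5, adjusted p = 0.773).

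The peroxisomal members held 5 of the 12 lower genes among 8 tested, 2 of them past 2-fold, and the 1 higher gene. Of all genes, 12.8% were lower, 0.416% were lower at least 2-fold and 14.2% were higher. The 1 higher gene among 8 is near that last share. Acaa1b, the thiolase that ends each peroxisomal cycle, had the lowest mean ratio of all members. It read -2.73, -1.87, -0.92, -1.94 and -1.04 in livers 1 to 5. Every liver was below 0, liver 1 by far the most and livers 3 and 5 the least. The mean of -1.70 ± 0.74 (SD, n = 5), or 3.25-fold lower, had an adjusted p of 0.00627. Its spot was bright in both channels, with background-subtracted signals of 4647 to 25768 in liver and 30605 to 57021 in the reference.

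Acaa1a is a close paralog of Acaa1b, and its 3 probes disagreed. The probe used, A_51_P327075, read 0.19, 0.06, -0.12 and 0.04 in livers 2 to 5, a mean of 0.04 ± 0.13 (SD, n = 4, adjusted p = 0.734). Probe A_52_P423183, also annotated to Acaa1a, read -2.71, -1.74, -0.90, -1.92 and -1.01. It followed the Acaa1b probe to within 0.12 in every liver. The third, A_52_P155990, had usable spots in livers 3 and 4 only, at -0.36 and -0.60.

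The signal of one of these genes may reach probes of the other, which was not tested here, since the files hold no probe sequences. The level of Acaa1a is therefore uncertain. Acaa1b was read by a single probe, and whether that probe and A_52_P423183 read Acaa1b, Acaa1a or both was not tested. The promoter windows of the pair, printed above, share 137 identical bases over an alignment of 284 positions. No unrelated windows were aligned for comparison, and that count says nothing about signal shared between probes. When the used probe changed, so did the Acaa1a mean: to -1.08 with probes averaged, to -1.39 without liver 1 and to -0.50 with outlier spots kept. Acaa1b kept its direction and an adjusted p below 0.05 under every alternative run for it.

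**Figure D2:**
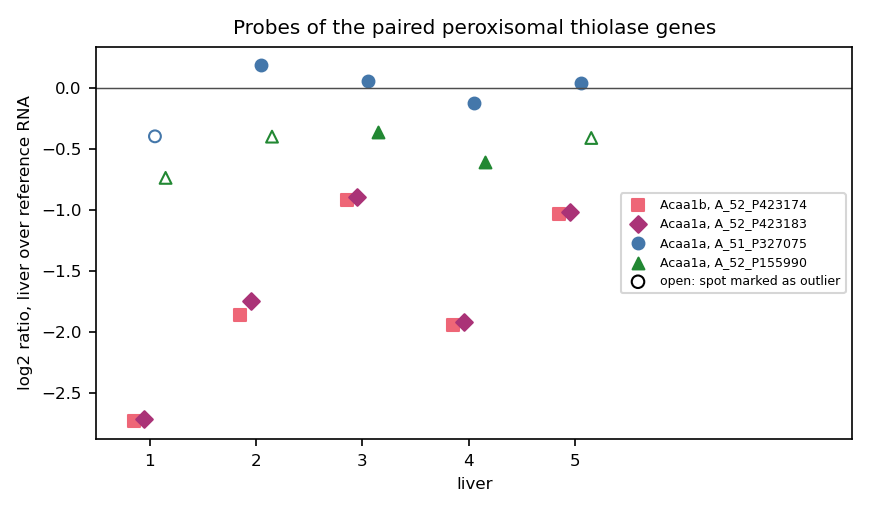
Log2 ratio (y axis) in livers 1 to 5 (x axis) of the Acaa1b probe and 3 Acaa1a probes. Open symbols are spots that the scanner software marked as outliers, which the report leaves out. The diamonds of Acaa1a probe A_52_P423183 sit on the squares of Acaa1b, from -2.73 to -0.90, while the circles of the Acaa1a probe used lie near 0.

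Ehhadh, which does the hydration and second dehydrogenation in peroxisomes, read -1.46, -1.31, -0.45, -1.18 and -0.75. All 5 livers were below 0, with livers 3 and 5 the highest, as for Acaa1b. The mean was -1.03 ± 0.42 (SD, n = 5), or 2.04-fold lower, with an adjusted p of 0.00255. Leaving out liver 1, 2 or 4 brought the mean to -0.92, -0.96 and -0.99, under 2-fold but still past the test. Hsd17b4, the other bifunctional enzyme, which handles branched chains and bile acid precursors, read -0.72, -0.42 and -0.21 in the 3 livers with a usable spot, livers 1 to 3. It averaged -0.45 ± 0.25 (SD, n = 3, adjusted p = 0.0349). Its adjusted p was 0.0568 when the array of liver 4, where it had no value, was left out.

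Abcd3, the transporter also known as PMP70 that brings acyl groups into peroxisomes, read -0.84, -1.26, -0.70, -0.99 and -1.12. The livers lay close together and all far below 0, with a mean of -0.98 ± 0.22 (SD, n = 5), or 1.98-fold lower. Its adjusted p of 0.000618 was the smallest of the members. A second probe averaged -0.78 ± 0.24 (n = 5). Pex11a, which promotes the division of peroxisomes, read -0.83, -0.92, -0.45, -0.44 and -0.14, below 0 in every liver and least so in liver 5. Its mean was -0.56 ± 0.32 (SD, n = 5, adjusted p = 0.0100).

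Acox2, the oxidase for branched chains and bile acid intermediates, stood apart in direction from the other called members. It read 0.45, 0.01, 0.29, 0.30 and 0.38, with liver 2 near 0 and the others above it. The mean of 0.29 ± 0.17 (SD, n = 5) had an adjusted p of 0.0313. That call was lost without liver 1, 3, 4 or 5 (adjusted p of 0.0853, 0.0729, 0.0969 and 0.0866) and with median centring (adjusted p = 0.543). Crot, which makes carnitine esters of shortened chains for export from peroxisomes, read -0.39, -0.59, 0.08 and -0.54 in livers 1, 2, 4 and 5, a mean of -0.36 ± 0.30 (SD, n = 4, adjusted p = 0.0650).

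None of the 4 members found in both compartments or with an unsettled place passed the test. Crat, the carnitine acetyltransferase, had the widest spread of them, at -0.75, -1.03, -0.29, -0.15 and 0.19. Livers 1 and 2 were low and liver 5 was above 0, and the mean was -0.41 ± 0.49 (SD, n = 5, adjusted p = 0.102). Ech1, a dienoyl-CoA isomerase, and Acad11, an acyl-CoA dehydrogenase, averaged -0.23 ± 0.21 and -0.22 ± 0.17. Eci2, an enoyl-CoA isomerase, averaged 0.0012 ± 0.20 (n = 5, adjusted p = 0.993).

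Pdk4 and Vnn1 are PPARα targets outside the oxidation pathway itself, and both were lower. Pdk4, which spares glucose when fat is burned, read -0.53, -1.30, -1.64, -1.53 and -0.93. All 5 livers were below 0. The mean was -1.19 ± 0.46 (SD, n = 5), or 2.28-fold lower, with an adjusted p of 0.00229. The liver spot was dim, with signals of 9.60 to 79.7, and was well above background on 4 arrays. In liver 1 the signals were 9.60 in liver and 40.6 in the reference, both below the offset of 50, so no order of the livers is read from it. The ratio moved with the processing: it was -2.19 with Agilent's processed signals. Vnn1, a pantetheinase that releases cysteamine, read -1.33, -0.59 and -0.79 in livers 1, 2 and 4, a mean of -0.90 ± 0.38 (SD, n = 3, adjusted p = 0.00845). Its marked spots in livers 3 and 5 read -0.08 and -0.14, closer to 0 than any of those kept.

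Hadh, Etfa, Scp2 and Decr2 had fewer than 3 usable spots and were not tested. With the outlier spots kept, Scp2, a peroxisomal thiolase and sterol carrier, averaged -0.53 with an adjusted p of 0.00557. The other three, a mitochondrial hydroxyacyl-CoA dehydrogenase, the alpha subunit of the electron transfer flavoprotein and a peroxisomal dienoyl-CoA reductase, averaged -0.10, -0.19 and -0.11, and none passed the test. Of the probe values of the members, 38 of 220 (17.3%) were left out as outliers, against 2.88% over all probes. Over probes at least as bright as the lower quartile of member probes the share was 17.5%, close to that of the members.

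Peroxisomal members averaged lower than mitochondrial ones in each of the 5 livers. The 15 mitochondrial members tested, carnitine shuttle and electron transfer included, averaged -0.38, -0.30, -0.0042, -0.18 and -0.024 in livers 1 to 5. The 8 peroxisomal members averaged -0.93, -0.77, -0.34, -0.61 and -0.45. The ketone body genes and Pdk4 were in neither class, and the gap with them counted as mitochondrial was not computed. Each mean covers the members with a value in that liver, so the genes averaged differ between livers. The gap was therefore -0.55, -0.47, -0.34, -0.43 and -0.43, a mean of -0.44 ± 0.08 (SD over 5 livers), in which members are not replicates and no test was made. It was of one sign in every liver, and narrowest in liver 3. With outlier spots kept, all 17 mitochondrial and 10 peroxisomal members had values, and the gap was -0.48, -0.44, -0.22, -0.34 and -0.36. Some probes used changed there, such as those of Acaa1a and Abcd3.

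Among the choices tried, which genes were counted moved the size of that gap but not its sign. Without Acaa1b, the most extreme member, it was -0.27, and with the 4 genes of both compartments counted as peroxisomal it was -0.30. Over the members with a value in all 5 livers, 10 mitochondrial and 5 peroxisomal, it was -0.60. With the analysis repeated without liver 1 it was -0.66, where Acaa1a was read from another probe (-1.39) and Hsd17b4 had too few values. With genes and probes kept as they were, the mean over livers 2 to 5 was -0.42. By medians over genes, mitochondrial members stood at -0.21 and peroxisomal members at -0.50. The 2 ketone body genes averaged -0.76, -0.87, 0.06, -0.52 and -0.23, below the mitochondrial mean in every liver but the third, and that average is Bdh1 and Acat1 far apart rather than a shared level.

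**Figure D3:**
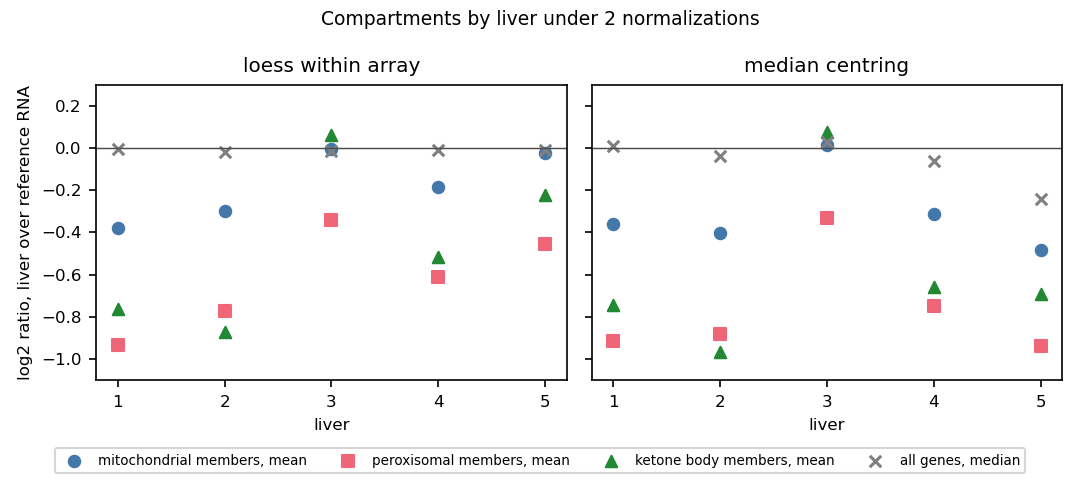
Mean log2 ratio (y axis) of the mitochondrial, peroxisomal and ketone body members, and the median of all genes tested, in livers 1 to 5 (x axis), with loess (left) and with median centring (right). The peroxisomal squares lie below the mitochondrial circles in every liver on both sides, and liver 5 drops on the right, where the median of all genes there is -0.24.

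With loess, most members had their lowest value in liver 1 or 2. Among the 23 with a value in every liver, 12 were lowest in liver 1, 10 in liver 2 and 1, the dim Pdk4, in liver 3. The highest value fell in liver 3 for 12 and in liver 5 for 6. Of all genes, 49.3% were lowest in liver 1 or 2, against 22 of the 23 members, and 38.7% were highest in liver 3 or 5, against 18 of the 23.

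The place of liver 5 in that order depended on the normalization. With median centring the members averaged -0.57, -0.65, -0.16, -0.50 and -0.66 in livers 1 to 5, against -0.59, -0.55, -0.17, -0.37 and -0.20 with loess. Then only 11 of the 23 were lowest in liver 1 or 2, while 10 were lowest in liver 5, whose median over all genes was -0.24 where the other livers lay between -0.06 and 0.03. Liver 3 kept the highest values under both, for 12 members with loess and 19 with median centring.

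Spread between livers was tested for 22 members as the variance of each gene against that of equally bright genes. No gene of the 12028 tested passed at an adjusted p below 0.05 (0%), with limma's prior variance, and 666 genes (5.54%) had an unadjusted p below 0.05, 4 of them members. With median centring 181 genes passed. Probes spotted 10 times on each array had a median SD of 0.09 between spots of an array and 0.17 between livers.

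The genes around the members, in lists of the same pathway, were lower in part, where 12.8% of all genes tested were lower and 14.2% higher. Among 9 of 10 other genes of ketone body synthesis and use, 3 were lower and none higher, with a median of -0.26. The lower ones were Aacs, which activates acetoacetate in the cytosol, at -1.02 ± 0.22 (SD, n = 5, adjusted p = 0.000523), Acss2, which makes acetyl-CoA from acetate, at -0.70 ± 0.27 (adjusted p = 0.00300), and Bdh2, a cytosolic hydroxybutyrate dehydrogenase, at -0.64 ± 0.20 (adjusted p = 0.00227). All 3 work outside the mitochondrial pathway that makes ketone bodies. Slc16a6, a transporter of monocarboxylates, had the largest SD of that list, 0.72 about a mean of -0.22.

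Of 23 further fatty acid oxidation genes tested, 5 were lower (all genes, 12.8%) and none higher (all genes, 14.2%), with a median of -0.17. Nudt7, which degrades coenzyme A in peroxisomes, was the lowest, at -1.87, -2.21, -1.59 and -2.24 in livers 1, 2, 3 and 5. All 4 values were far below 0 and the mean, -1.98 ± 0.31 (SD, n = 4), had an adjusted p below that of any member. Acad10, an acyl-CoA dehydrogenase, averaged -0.55 and Amacr, the racemase for branched chains, -0.41. Abcd2, a peroxisomal transporter related to Abcd3, had the largest SD, 0.61.

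Of 23 other PPARα targets tested, 8 were lower (all genes, 12.8%) and 5 higher (all genes, 14.2%), with a median of -0.19. The higher count was 3 without liver 3, 2 without liver 2, 1 without liver 4 and 0 with median centring. Cyp4a12a, a fatty acid omega-hydroxylase, averaged -1.06 ± 0.37 (SD, n = 5, adjusted p = 0.00149), Acot3, a peroxisomal thioesterase, -0.996 ± 0.408 (adjusted p = 0.00257), and Plin2, a lipid droplet coat protein, -0.76 ± 0.43 (adjusted p = 0.00787). Acot3 was dim, with a liver signal down to 5.11 and well above background in liver on 4 arrays, and its mean was -2.04 with Agilent's processed signals. The higher ones included Fabp3, a fatty acid binding protein best known from muscle, at 0.99 ± 0.76 (adjusted p = 0.0371), a call lost without liver 1 or 4 (adjusted p of 0.132 and 0.106), and Slc27a1, a fatty acid transport protein, at 0.47 ± 0.16 (n = 4). Txnip, an inhibitor of thioredoxin, has probes that disagree. The one used averaged 0.39 ± 0.34 (adjusted p = 0.0447), a call lost without liver 2, 3 or 4 (adjusted p of 0.121, 0.0988 and 0.145), while the second, A_51_P438805, averaged -0.48 ± 0.21 and was below 0 in every liver, so no direction is read for Txnip.

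Cyp4a14, an omega-hydroxylase strongly driven by PPARα, had the largest SD of that list, with ratios of -2.37, -1.79, 0.97, -0.97 and 1.66. With loess, livers 1 and 2 were lowest and livers 3 and 5 highest. Most members, too, were lowest in liver 1 or 2 and highest in liver 3 or 5 with loess. With median centring, 10 of the 23 members with a value in every liver were lowest in liver 5. The mean of Cyp4a14, -0.50 ± 1.75 (SD, n = 5), was not called (limma adjusted p = 0.603).

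All 23 genes of a list of regulators were tested, and 11 were lower and none higher, with a median of -0.29. The lowest were Klf15, a transcription factor of the fasted liver, at -0.82 ± 0.50 (SD, n = 5, adjusted p = 0.0118), Prkaa2, a catalytic subunit of AMPK, at -0.72 ± 0.26 (adjusted p = 0.00271), and Foxo1, a transcription factor restrained by insulin, at -0.67 ± 0.15 (adjusted p = 0.00134). Of 18 peroxisome assembly genes tested, 3 were lower and 3 higher, shares near the 12.8% and 14.2% of all genes, with a median of -0.09. Pex7, Pex5 and Pex26, of the import of matrix proteins, averaged -0.46, -0.38 and -0.34. The higher ones included Pex11g, of peroxisome division, at 0.52 and Pex6, of receptor recycling, at 0.35. A second, dimmer Pex11g probe averaged -0.04 ± 0.29 (SD, n = 5). The lower count of that list was 1 without liver 4, where Pex5 had an adjusted p of 0.0925, and the higher count was 2 without liver 1, 2, 4 or 5, each of which ended the call of Pex6 (adjusted p of 0.0768, 0.0750, 0.0645 and 0.0622), and 1 with median centring.

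**Figure D4:**
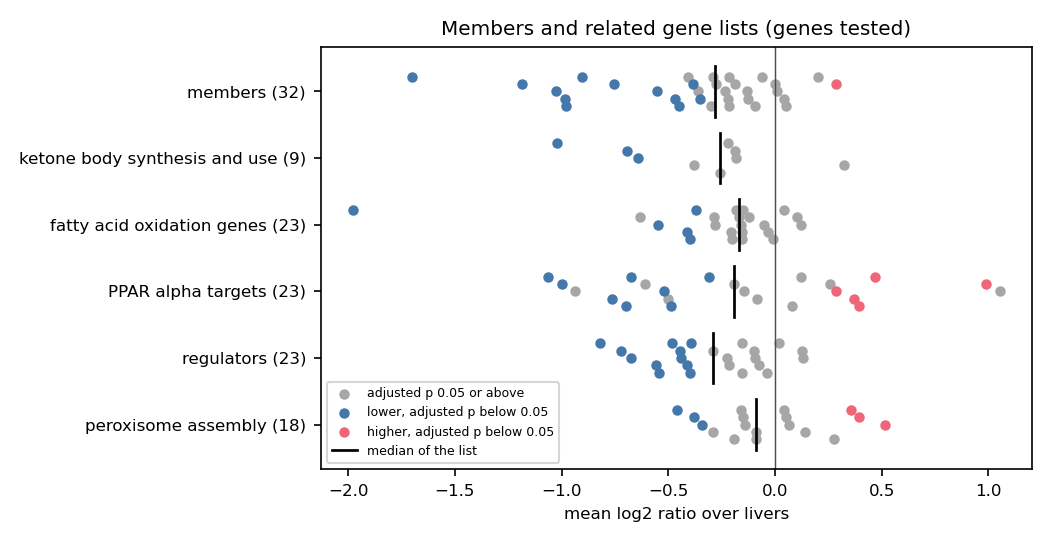
Mean log2 ratio over livers (x axis) of each gene tested, for the members and 5 lists of related genes (y axis, number tested in brackets), with a bar at each list's median. Blue points are lower and red points higher at a limma adjusted p below 0.05. The members reach -1.70 and have 1 red point, and the PPARα targets hold 5.

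Hepatocytes carry most of these pathways in liver, and their markers were strong in both channels. All 8 hepatocyte markers tested, of 10, were well above background in both channels on every array, with a summed signal of 567644 to 682676 in the livers and 300750 to 483453 in the reference. Their median ratio was 0.32, 0.58, 0.19, 0.45 and 0.24 in livers 1 to 5, above 0 in every liver. The markers were split, with 4 of the 8 higher (all genes, 14.2%) and 1 lower (all genes, 12.8%). The lower one, Ass1, averaged -0.58 (limma adjusted p = 0.0365), and Tat, which was not called, averaged -0.56 (n = 4). Kupffer cell markers (9 of 10 tested) summed to 7043 to 9826 in liver and 8980 to 14053 in the reference. Of these, 6 of the 9 were lower (all genes, 12.8%), with a median ratio of -0.34. Sinusoidal endothelial markers (10 of 10) summed to 5117 to 7474 and 5450 to 8674. Here 5 of the 10 were lower (all genes, 12.8%), with a median of -0.30. The medians of both lists were close to the -0.28 of the members. Markers of red blood cells (5 of 7 tested) had median ratios of -1.44, -0.48, -0.75, -0.35 and -0.39, lowest in liver 1, with summed signals of 4503 to 20346 in liver and 15972 to 27436 in the reference. Neutrophil markers (8 of 10) had median ratios of 0.22, 0.67, -0.09, 0.14 and -0.02, highest in liver 2, with sums of 2374 to 5272 and 2404 to 3566. Heart and muscle markers (8 of 10) summed to 4317 to 7067 in liver and 3778 to 5659 in the reference. No tested marker of these lists stayed below background in all livers, and their part in the ratios of the members was not tested. In whole tissue, fewer cells of a type and less RNA per cell cannot be told apart.

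Between arrays, the share of spots well above background ran from 77.2% to 81.1% in the liver channel and from 69.5% to 78.1% in the reference. The median background-subtracted signal was 77.4 to 176 and 74.0 to 149, and no spot was saturated. Across 13705 genes, which are not independent replicates, the correlation between any pair of arrays ran from 0.39 to 0.75 (Pearson r).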

How the data were processed

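RNA of 5 livers was read on 2-colour arrays. The members and gene lists were chosen with earlier results of these data known. The authors deposited scanner files from Agilent Feature Extraction 11.5.1.1, which per the file headers give median spot and local background intensity for 45018 spots per array, processed intensities, and the log10 ratio of Cy5 over Cy3. A second deposited file, of log2 ratios, covers 40599 probes, and 99.7% of its values differed by under 0.001 from the processed intensities of the same array as a log2 ratio. Its column medians were -0.03, -0.07, -0.08, -0.10 and -0.03. Positive values mean higher in liver.

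Here, limma 3.58.1 (R 4.3.3) corrected the median intensities by normexp with an offset of 50 and normalized each array by loess, giving control and outlier spots a weight of 0. Outlier spots (2.32% to 4.05% per array) were then left out and the spots of a probe averaged. Probes were named through RefSeq accessions (annotation of GRCm38.p6): 24375 of 41174 matched a gene and 16799 did not. Tested probes had at least 3 values and were well above background, in one channel or the other, on at least 3 arrays. The brightest tested probe stood for its gene. Mean ratios were tested against 0 with limma (eBayes with trend and robust prior, two-sided) and Benjamini-Hochberg adjusted over 14917 genes. Genes are called at an adjusted p below 0.05, with and without a minimum of 2-fold. The spread test was an F test, upper tail, over genes whose probe was well above background in each channel of every array. The ± values are SD over livers.

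All members are named. Of each related list, the text names at most 3 highest and 3 lowest called genes and the gene with the largest SD. Some genes of these lists are not reported here by name. The labels do not say that the samples are separate animals, so p-values cover only how these samples spread, and part of that may be technical. They leave out the spread of the reference RNA, and with no dye swap the dye effect of a probe stays in its ratio. The number of arrays limits the precision. On simulated data over 13705 genes, the ratio test recovered 94% of changes of log2 1 and 99% of log2 1.5. There the values were independent and normal, brightness was drawn at random, no value was missing and all other genes were unchanged. The real arrays differ in these points, so the shares do not give the power for the members. The spread test recovered 46% of genes at 6 times and 89% at 12 times the usual SD.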

Additional observations from a re-analysis of the deposited data

How the results depend on the processing

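Acaa1b, Abcd3, Ehhadh, Bdh1, Acads, Decr1, Pex11a and Pdk4 kept their direction and an adjusted p below 0.05 (limma) under the alternatives run for each, though Pdk4 was not tested where both channels had to be above background. Over all members and alternatives, 351 values stayed on their side of the threshold in the same direction, 20 gained a call, 14 lost one and 21 turned in sign. Among mitochondrial and peroxisomal members, Hadha gained a call as lower in 4 alternatives, Etfdh and Crot in 3 each, and Cpt1a and Cpt2 in 2 each. The call of Eci1 was lost with scaling between arrays (adjusted p = 0.0549) and without the trend and robust prior (0.0504), and that of Hsd17b4 with scaling (0.0523) and without liver 4 (0.0568). Abcd3 averaged -0.67 with outlier spots kept, which changed the probe used.

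With Agilent's processed signals, 323 genes were higher and 156 lower at least 2-fold, and with the deposited ratios 324 and 155. With probes averaged 85 were higher. Members called lower at least 2-fold numbered 5 with processed signals, with median centring and with the deposited ratios, where Bdh1 and Abcd3 joined Acaa1b, Ehhadh and Pdk4. Members called higher numbered 0 with median centring and 2 without the trend and robust prior. Genes past the spread test numbered 181 with median centring, where 11 members were lowest in liver 1 or 2. The peroxisomal minus mitochondrial gap was -0.57 with probes averaged, -0.30 with members of both compartments counted as peroxisomal, -0.60 over members with a value in all livers and -0.27 without Acaa1b; the last 2, and the counts of members by lowest or highest liver, were chosen after seeing the data. The causes were not tested.

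Leaving out 1 liver at a time gave 1188 to 1852 genes called higher and 1010 to 1445 lower, the fewest without liver 4, 9 to 14 members lower, 2 to 5 lower at least 2-fold and 0 to 1 higher, and a gap of -0.66 to -0.45; the -0.66 is without liver 1, where the probe of Acaa1a changed, and was -0.42 with genes and probes kept, an alternative chosen after seeing the data.

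Sign turned only in members near 0 or with discordant probes. Acaa1a was -0.14 with median centring, -0.54 with deposited ratios, -1.08 with probes averaged, -0.50 with outlier spots kept, and -1.39 (without liver 1) to 0.097 (without liver 4) when 1 liver was left out. Acadm was -0.062 with median centring, -0.0080 with scaling, and -0.073 (without liver 3) to 0.11 with 1 liver left out. Acat1 was -0.064 with median centring, and -0.065 (without liver 3) to 0.12. Eci2 was -0.0067 with processed signals and with deposited ratios, -0.16 with median centring, -0.018 with scaling, and -0.062 (without liver 2) to 0.074. Acadl ran from -0.14 to 0.0099 and Etfdh from -0.29 to 0.0054, the upper value of each without liver 1. Among related genes, Abcd2 ran from -0.073 (without liver 4) to 0.35, and Txnip was -0.042 with probes averaged.

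No paired analysis was possible because there is 1 group. A slide or scan-date block could not be fitted, since each of the 5 slides held 1 array and all shared 1 scan date. The dimmest calls, such as Pdk4 and Decr1, are limited by signal over background.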
